A study of Mus musculus with 40 samples.

Results

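The 44 genes of the cell cycle and of DNA replication described here were followed in whole-blood mRNA of 40 mice. They were the rows of a table of 54532 genes whose symbol was on a fixed list, and each of the 44 symbols was found. All mice were female, 7 weeks old, and either Ifnar1+/+ or labelled Ifnar1-/-, lacking by that label a subunit of the type I interferon receptor. Some Ifnar1+/+ mice were given spermine for 3 days and then pristane, and bled on day 4 (n = 6) or day 6 (n = 6). Mice labelled Ifnar1-/- were given PBS for 3 days and then pristane. They were bled on day 4 (n = 5) or day 6 (n = 5), and others were left uninduced (n = 3). Further Ifnar1+/+ mice were given PBS for 3 days and then pristane. They were bled on day 4 (n = 6) or day 6 (n = 6), and others were left uninduced (n = 3). Pristane is a hydrocarbon oil that brings on lupus-like disease in mice, and spermine is a natural polyamine. No pretreatment is given for uninduced mice, so PBS and pristane cannot be told apart where those mice are the comparison. Each library is called a biological replicate in the labels, and no pooling is mentioned.

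A dividing cell copies its DNA in S phase and parts the copies in mitosis. E2F factors switch on genes for entry into S phase, among them cyclin E, the MCM helicase that opens DNA, PCNA, the clamp that holds polymerases on it, and ribonucleotide reductase, which makes deoxynucleotides. Later, cyclins A and B with CDK1 drive mitosis, aurora and polo kinases and kinesins build the spindle, and the anaphase-promoting complex, with UBE2C as its ubiquitin-conjugating enzyme, ends it by destroying the cyclins. Most white cells in circulation are not dividing, and reticulocytes, the young red cells, have no nucleus but still carry transcripts made in the marrow. In bulk blood, fewer cells of a type and less RNA per cell cannot be told apart.

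Libraries held 9156431 to 14058050 fragments, and hemoglobin transcripts took 26.5 to 62.2% of them. FPKM as deposited are fragments scaled by gene length and by a factor per library that was not in proportion to its fragment total. Thus 1 read in a 2 kb gene was 0.0189 to 0.0362 FPKM in spermine day 4 mice and 0.0441 to 0.103 FPKM in Ifnar1+/+ PBS day 4 mice. FPKM gaps between these groups include that factor. Ifnar1 itself read 13.7 to 23.9 FPKM in the 13 mice labelled Ifnar1-/-, against 5.85 to 10.3 FPKM in the 27 Ifnar1+/+ mice. The whole-gene value therefore did not show loss of the transcript, and the label is used as a label. Markers of red cells were present in every library, with none of 12 at 0. Of the 40 libraries 7 stood apart by a mitochondrial share of non-hemoglobin fragments under 1.2%: mice 1, 3 and 4 of the PBS day 4 group, mice 4 and 6 of the PBS day 6 group, mouse 2 of the spermine day 6 group and uninduced Ifnar1+/+ mouse 3.

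Promoters of 5 members are shown. With FPKM as deposited, Ube2c, E2f2, Nusap1 and Ccnb2 moved between groups, while Pcna did not pass the test in any comparison. That contrast depends on the scaling. With every library scaled to the same total of non-hemoglobin FPKM, Pcna passed the test in some comparisons, given below. The sequences are RefSeq promoters on GRCm38.p6, from 250 bases before to 50 after the gene's start, printed 5′ to 3′ on the gene's strand. Capitals mark 3 motifs searched on both strands: the cell cycle homology region or CHR (TTTGAA, or TTCAAA on the other strand), the CCAAT box (CCAAT or ATTGG) and an E2F word (TTTCGCGC, GCGCGAAA, TTTGGCGC or GCGCCAAA). Ube2c lies at chr2:164769679-164769978 (+), Nusap1 at chr2:119618048-119618347 (+), E2f2 at chr4:136172024-136172323 (+), Ccnb2 at chr9:70421505-70421804 (-) and Pcna at chr2:132253131-132253430 (-).
Ube2c: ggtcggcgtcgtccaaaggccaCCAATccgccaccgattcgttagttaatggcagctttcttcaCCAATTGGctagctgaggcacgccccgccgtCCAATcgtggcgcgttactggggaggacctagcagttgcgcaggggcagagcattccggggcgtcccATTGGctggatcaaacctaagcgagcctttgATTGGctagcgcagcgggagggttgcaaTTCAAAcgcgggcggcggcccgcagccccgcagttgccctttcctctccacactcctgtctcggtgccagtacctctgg
Nusap1: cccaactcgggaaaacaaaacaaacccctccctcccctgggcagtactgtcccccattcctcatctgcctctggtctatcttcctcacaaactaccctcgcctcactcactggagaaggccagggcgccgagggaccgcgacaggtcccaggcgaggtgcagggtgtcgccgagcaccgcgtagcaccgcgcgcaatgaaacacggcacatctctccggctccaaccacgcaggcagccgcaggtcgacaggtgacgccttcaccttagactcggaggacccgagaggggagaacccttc
E2f2: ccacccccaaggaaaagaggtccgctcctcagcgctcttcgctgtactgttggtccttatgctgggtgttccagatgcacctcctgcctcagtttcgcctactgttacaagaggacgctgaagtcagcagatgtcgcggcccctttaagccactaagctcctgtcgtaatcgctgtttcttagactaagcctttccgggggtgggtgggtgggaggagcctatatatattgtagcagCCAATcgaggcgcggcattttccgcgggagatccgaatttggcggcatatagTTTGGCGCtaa
Ccnb2: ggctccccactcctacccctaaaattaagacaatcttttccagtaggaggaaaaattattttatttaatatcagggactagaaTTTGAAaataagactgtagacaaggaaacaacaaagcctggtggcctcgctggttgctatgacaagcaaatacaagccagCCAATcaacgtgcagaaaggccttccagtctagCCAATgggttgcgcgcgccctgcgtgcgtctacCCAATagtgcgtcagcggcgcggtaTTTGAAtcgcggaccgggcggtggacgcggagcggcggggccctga
Pcna: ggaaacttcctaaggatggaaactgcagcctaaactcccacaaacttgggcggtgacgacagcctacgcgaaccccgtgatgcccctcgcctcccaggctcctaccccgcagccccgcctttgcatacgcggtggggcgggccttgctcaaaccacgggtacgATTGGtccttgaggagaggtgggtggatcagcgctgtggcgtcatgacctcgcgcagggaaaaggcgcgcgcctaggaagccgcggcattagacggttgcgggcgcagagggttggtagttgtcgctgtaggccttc
Ube2c held 1 CHR and 6 CCAAT words, of which 1 pair overlaps in CCAATTGG. Ccnb2 held 2 CHR and 3 CCAAT words. The E2f2 window had 1 CCAAT box and 1 E2F word, the Pcna window had 1 CCAAT box, and none of the 3 motifs occurred in the Nusap1 window.

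Of the 44 members, 38 had a promoter in the table. The CHR letters occurred in 9 of 11 mitotic kinases, cyclins and their targets, in 10 of 13 chromosome, spindle and cytokinesis genes, and in 1 of 14 replication genes, against 17.9% of 32817 promoters of the same length. The CCAAT box occurred in 11 of 11, 10 of 13 and 9 of 14 of these groups, against 37.4% of all promoters. The E2F words occurred in 1 of 11, 0 of 13 and 5 of 14, against 0.814% of all promoters. A match describes letters in the window and is not a binding site. Promoters of Ccna2, Aurkb, Kif20a, Tpx2, Ccne2 and Mcm4 were not used here.

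Levels of the 44 genes spanned from 0.0211 FPKM for Ttk, a spindle checkpoint kinase, to 85.7 FPKM for Ube2c as means of 40 libraries. Ube2c, the transcription factor E2f2 (60.0 FPKM) and the microtubule-binding Nusap1 (43.7 FPKM) together made up 76.2% of the summed mean FPKM of the list. Next came Pcna at 11.1 FPKM and Mcm4 at 4.93 FPKM. Ccnb2 and Ccna2, genes of a B-type and an A-type cyclin, averaged 4.60 and 4.23 FPKM. The other MCM subunits lay between 2.11 FPKM (Mcm2) and 4.13 FPKM (Mcm6), and Mki67, the gene of the proliferation antigen Ki-67, averaged 1.82 FPKM.

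Core drivers of mitosis had few reads. Cdk1, the kinase that cyclins A and B bind, had 192 reads in all 40 libraries, with a median of 3 reads and a range of 0 to 18. Ccnb1 had a median of 6 reads, and Ttk had 48 reads in all and none in 17 libraries. Plk1 averaged 0.257 FPKM, Bub1 0.113 FPKM and Kif11, the motor that pushes spindle poles apart, 0.290 FPKM. Of the 44 members, 12 had at least 1 library with 0 reads.

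**Figure D1:**
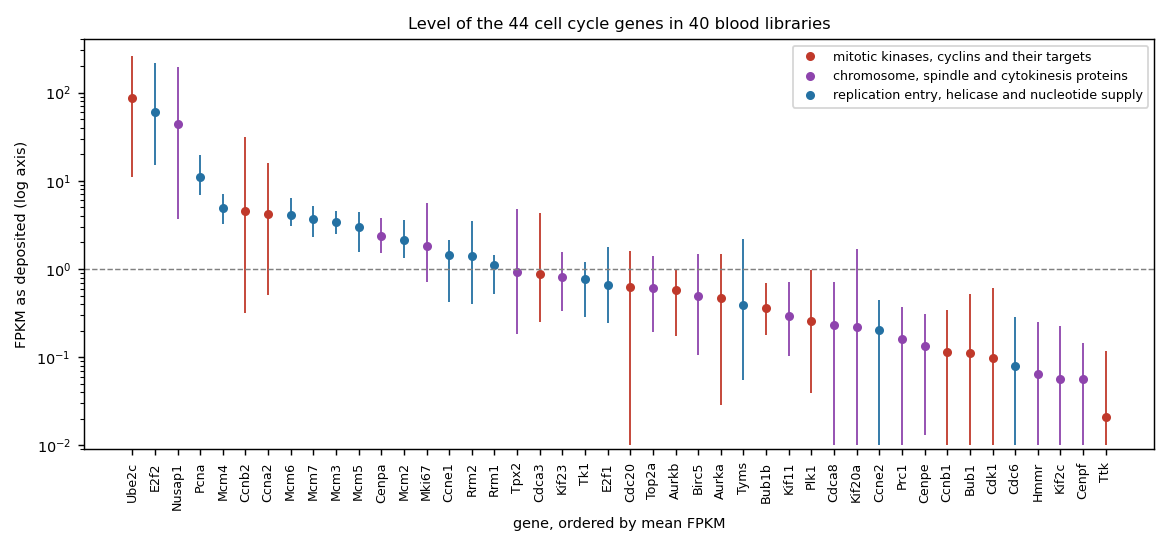
Mean level of each of the 44 genes over 40 blood libraries (points, FPKM as deposited, log axis) with the lowest and highest library (lines, drawn to the edge of the axis at 0.01 FPKM where a library had 0 reads); colours give the role and the dashed line is 1 FPKM. Ube2c, E2f2 and Nusap1 stand above Pcna at 11.1 FPKM, and the line ends at Ttk with 0.0211 FPKM.

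Genes were tested when at least 3 libraries reached 1 FPKM. This held for 25 members: 5 of 13 mitotic kinases, cyclins and their targets, 7 of 15 chromosome, spindle and cytokinesis genes and 13 of 16 replication genes. The 19 untested members averaged 0.0211 to 0.573 FPKM and were Ccnb1, Cdk1, Cdca8, Bub1, Bub1b, Aurka, Aurkb, Plk1, Ttk, Kif11, Kif20a, Kif2c, Cenpe, Cenpf, Prc1, Hmmr, Ccne2, Tyms and Cdc6. Just inside the limit, Tk1, E2f1, Cdc20, Top2a and Birc5 reached 1 FPKM in 4 libraries each, while just outside it Aurka did in 2, Tyms and Kif20a in 1 and Aurkb in 0. A gene can pass this limit through the group in which it is high, so counts among the 25 are descriptions. A gene is said to be called, to rise or to fall at an adjusted p under 0.05 from limma, Benjamini-Hochberg over 11829 genes, and log2 changes are of FPKM + 1, which understates low genes.

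Spermine before pristane was compared with PBS on day 4 in Ifnar1+/+ mice. In blood of spermine mice 10 of 25 tested members fell, 8 of them among the 12 tested mitotic, chromosome and spindle genes, where Cdc20, Cdca3 and Cenpa were not called and Kif23 rose, and 2 among the 13 tested replication genes, E2f2 and Rrm2. Ube2c had 10.9, 24.6 and 33.7 FPKM as lowest, median and highest in the 6 spermine mice, against 51.8, 136 and 229 FPKM in the 6 PBS mice. Nusap1 had 3.70, 6.81 and 12.6 FPKM in spermine mice, against 24.7, 70.6 and 136 FPKM in PBS mice. E2f2 had 15.0, 18.9 and 33.6 FPKM in spermine mice and 48.1, 97.1 and 171 FPKM in PBS mice. Every spermine mouse lay below every PBS mouse in FPKM for all 3 genes, and the share of all genes that separate in this way was not counted. In reads, which are not scaled to library depth, the gaps were smaller. Ube2c had 653 to 1229 reads in spermine mice and 1528 to 3702 in PBS mice, and Nusap1 had 327 to 709 and 1136 to 3463 reads. The PBS mice themselves split, with mice 1, 3 and 4, the libraries of low mitochondrial share, at 187, 229 and 200 FPKM of Ube2c and the other mice at 51.8, 86.2 and 69.3 FPKM.

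In this comparison 11 of 25 members were called, 10 lower and 1 higher, with a median log2 change of -0.20 over the 25 members and 0.01 over all 11829 genes, of which 9.13% were called, 6.48% lower and 2.65% higher. Nusap1 fell by 2.95 on the log2 scale (SE 0.42, adjusted p = 7.14e-06) and Ube2c by 2.40 (SE 0.37, adjusted p = 1.93e-05). The cyclin genes followed: Ccna2 averaged 0.741 ± 0.250 FPKM in spermine mice and 8.17 ± 5.53 FPKM in PBS mice (SD, n = 6 each), a log2 change of -2.16, and Ccnb2 averaged 0.576 ± 0.158 FPKM in spermine mice and 5.20 ± 2.72 FPKM in PBS mice, a log2 change of -1.86. E2f2 fell by 2.08 (SE 0.37, adjusted p = 0.000115). These 5 genes also fell under both fixed-total scalings and with the 7 low-mitochondrial libraries left out, where Nusap1 changed by -1.94 and Ube2c by -1.61.

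For members of low FPKM the log2 change of FPKM + 1 is small by its construction. Tpx2, which activates Aurora A on the spindle, averaged 0.240 ± 0.0385 FPKM in spermine mice and 1.35 ± 0.485 FPKM in PBS mice, a log2 change of -0.89 (adjusted p = 0.00164). Rrm2, the S-phase subunit of ribonucleotide reductase, changed by -0.86 (SE 0.19), but by -0.21 (adjusted p = 0.208) under a fixed total that counts hemoglobin. Birc5, the survivin subunit of the chromosomal passenger complex, changed by -0.64 (SE 0.14). Top2a, the topoisomerase that untangles sister chromosomes, had 0.193, 0.421 and 0.532 FPKM as lowest, median and highest in spermine mice. In PBS mice it had 0.792, 0.952 and 1.40 FPKM, with no overlap of FPKM and a log2 change of -0.51 (SE 0.12). Its reads did overlap, at 25 to 127 in spermine mice and 52 to 98 in PBS mice. Reads are not scaled to library depth. Fragments without hemoglobin numbered 5681742 to 9366185 in spermine mice and 4186881 to 5922491 in PBS mice. Birc5 and Top2a were not tested under either fixed total or without the 7 low-mitochondrial libraries. Mki67 had 0.713, 1.06 and 1.31 FPKM in spermine mice and 1.37, 2.45 and 3.28 FPKM in PBS mice. Its groups did not overlap in FPKM, though its reads did, at 103 to 287 in spermine mice and 143 to 235 in PBS mice. For Top2a and Mki67 too, the share of all genes that separate in FPKM was not counted. The log2 change of Mki67 was -0.71 (SE 0.17, adjusted p = 0.00511), but it was -0.39 (adjusted p = 0.328) without those 7 libraries. Under a fixed total of non-hemoglobin FPKM it was -0.24 (adjusted p = 0.0974), and 0.083 (adjusted p = 0.653) under a fixed total that counts hemoglobin. Kif23, a kinesin of the cytokinesis midzone, was the only member called higher, at 1.15 ± 0.321 FPKM in spermine mice and 0.589 ± 0.0969 FPKM in PBS mice. It is named after its values were seen.

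**Figure D2:**
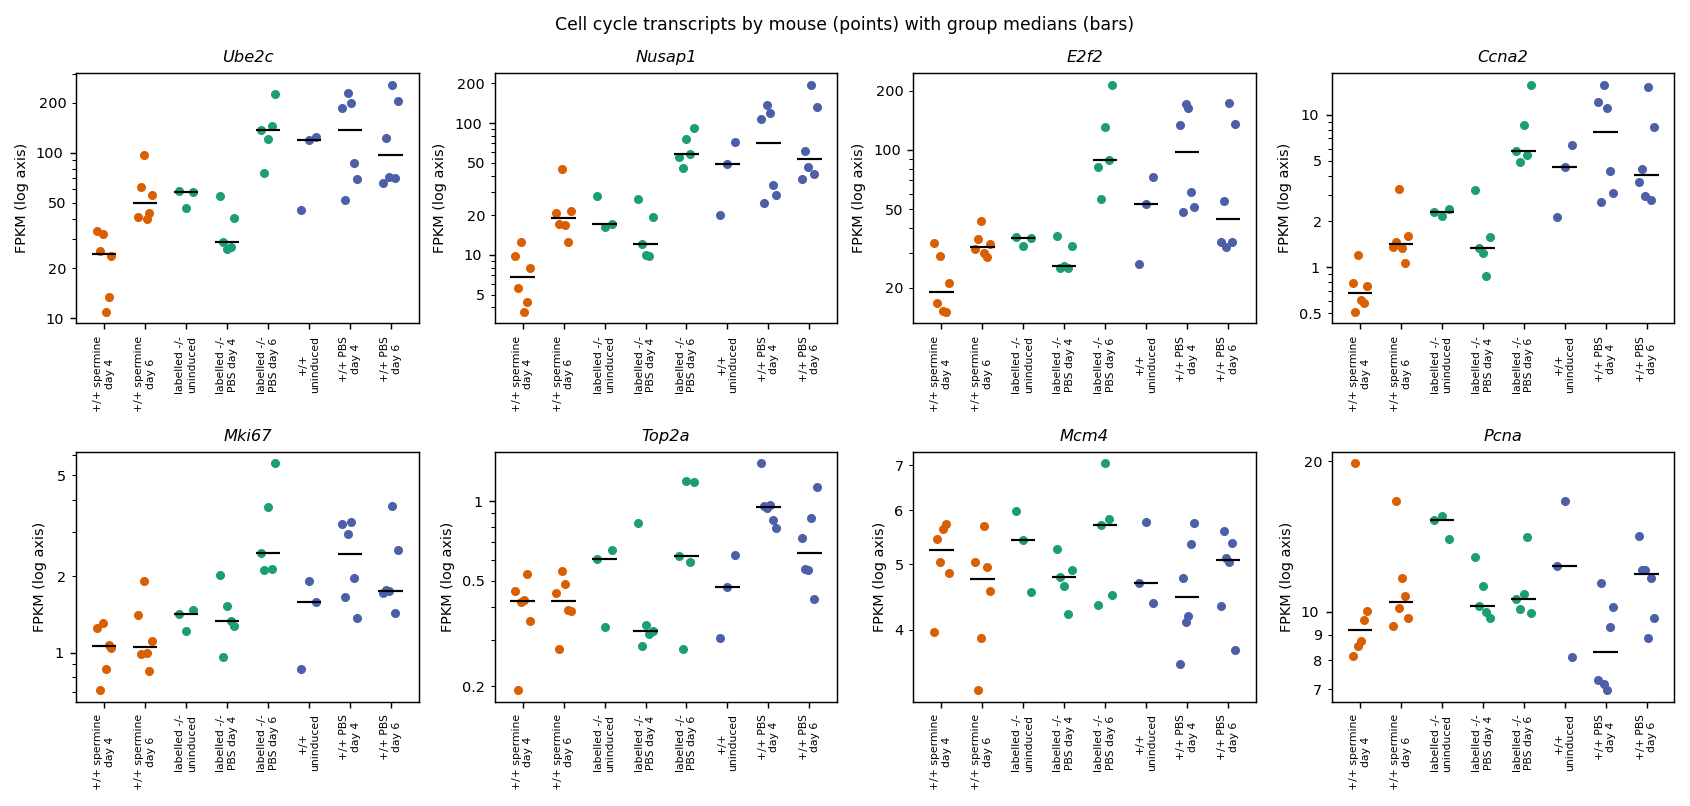
Level of 8 members in each mouse (points, FPKM, log axes) with the group median (bars); spermine mice are orange, mice labelled Ifnar1-/- green, and Ifnar1+/+ mice given PBS or uninduced blue. Ube2c lies at 10.9 to 33.7 FPKM in spermine day 4 mice and 51.8 to 229 FPKM in PBS day 4 mice, while Mcm4 keeps to 3.26 to 7.05 FPKM in all groups.

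Of the 13 tested replication members 2 were called lower, E2f2 and Rrm2, against 3 of 5 mitotic kinase, cyclin and target genes and 5 of 7 chromosome and spindle genes. Their median log2 changes were 0.04, -1.86 and -0.64. The 1 FPKM limit kept 13 of 16 replication genes, 5 of 13 kinase, cyclin and target genes and 7 of 15 chromosome and spindle genes. A gene can pass it through the group in which it is high, so these shares describe tested genes and do not compare the roles. Mcm4 had 3.98, 5.24 and 5.72 FPKM as lowest, median and highest in spermine mice, against 3.57, 4.48 and 5.76 FPKM in PBS mice. Pcna had 8.15, 9.19 and 19.8 FPKM in spermine mice and 6.97, 8.33 and 11.4 FPKM in PBS mice. Both pairs of groups overlapped, with log2 changes of 0.13 (95% interval -0.10 to 0.35) for Mcm4 and 0.24 (-0.10 to 0.57) for Pcna. The 5 other MCM genes changed by -0.20 to 0.08 and none was called.

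That absence of calls depends on the scaling. With the total of non-hemoglobin FPKM fixed per library, the median of all genes shifted by 0.51 in this comparison. Of 23 members 19 were called, 12 higher and 7 lower. The 12 were Pcna, Mcm2, Mcm3, Mcm4, Mcm5, Mcm6, Mcm7, Rrm1, Tk1, Ccne1, Cenpa and Kif23, with the members' median at 0.32, below the shift of all genes. With hemoglobin in the total the shift was 0.86, and 16 of the 25 members tested there were called higher and 6 lower. Birc5 and Top2a were not tested there, so these 25 are not the same members as the 25 of the main fit.

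Other genes of the pathway were counted from lists. Of 46 further mitosis genes 13 were tested and 5 fell: Pttg1, the securin that restrains separase, averaged 31.3 FPKM in spermine mice and 158 FPKM in PBS mice (log2 change -2.24), and Cdc25b, a phosphatase that activates CDKs, averaged 46.6 FPKM in spermine mice and 206 FPKM in PBS mice (log2 change -1.95). Asf1b, a histone chaperone, and Spc24, of the kinetochore, changed by -0.79 and -0.67, and the remaining gene was Incenp. Of 44 further replication genes 22 were tested and 1 fell, the maintenance DNA methyltransferase Dnmt1 (log2 change -0.68). Among 24 tested of 31 regulators of G1 and brakes, 3 fell and 1 rose. Fzr1, which keeps the anaphase-promoting complex active after mitosis, fell by 2.37 on the log2 scale (4.27 FPKM in spermine mice, 31.3 FPKM in PBS mice), the CDK inhibitor Cdkn2c by 1.01 and Rb1 by 1.03. The CDK inhibitor Cdkn1b rose, with a log2 change of 0.31.

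Erythroid markers moved with these genes: 10 of 12 were called lower in spermine mice, with a median log2 change of -2.46. Their summed level was 2586 to 7085 FPKM in spermine day 4 mice and 12000 to 39512 FPKM in PBS day 4 mice, and their part in the result was not tested. All 5 mature neutrophil markers were called higher in spermine mice, and of 5 tested late neutrophil precursor markers 1 was called higher and 2 lower. Of 7 tested plasma cell markers 1 was called lower, and plasma cell markers summed to 75.4 to 118 FPKM in spermine mice and 85.8 to 101 FPKM in PBS mice. Stem and progenitor markers summed to 2.03 to 2.78 FPKM in spermine mice and 1.31 to 2.69 FPKM in PBS mice. Early neutrophil precursor markers had a median sum of 2.57 FPKM in spermine mice and 2.97 FPKM in PBS mice.

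On day 6 the spermine and PBS groups overlapped. Ube2c had 39.5, 49.5 and 96.8 FPKM as lowest, median and highest in spermine mice, against 65.6, 97.1 and 257 FPKM in PBS mice. Nusap1 had 12.5, 19.0 and 44.7 FPKM in spermine mice and 38.0, 53.7 and 196 FPKM in PBS mice. No member was called by limma, 12 of 25 had an unadjusted p under 0.05, and voom on recovered reads called 1, Nusap1, while 0.0423% of all genes were called. Leaving out PBS day 6 mouse 5 gave 5 calls, PBS day 6 mouse 1 or 3 gave 3 each and spermine day 6 mouse 3 gave 2. The lowest adjusted p belonged to Nusap1 (0.0513, log2 change -1.72, SE 0.42) and Ccna2 (0.0607, log2 change -1.24, SE 0.34). The difference between the day 4 and day 6 spermine effects was itself not called for any of 25 members, with 4 at an unadjusted p under 0.05, 0.0169% of all genes called and an interval of 0.26 to 2.40 for Ube2c. Erythroid markers summed to 6327 to 13713 FPKM in spermine day 6 mice and 9198 to 36795 FPKM in PBS day 6 mice, with 0 of 12 called.

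Mice labelled Ifnar1-/- were compared with Ifnar1+/+ mice on day 4 of pristane after PBS. The PBS-treated Ifnar1+/+ mice are the same 6 as above, so values of this comparison and the spermine comparison share their controls. Ube2c was 54.4, 29.1, 26.4, 27.1 and 40.3 FPKM in the 5 labelled Ifnar1-/- mice, against 51.8, 136 and 229 FPKM as lowest, median and highest in Ifnar1+/+ mice. E2f2 was 36.6, 25.1, 25.8, 25.1 and 32.5 FPKM in labelled Ifnar1-/- mice, against 48.1, 97.1 and 171 FPKM in Ifnar1+/+ mice. The groups did not overlap in FPKM for E2f2, and for Ube2c 1 labelled Ifnar1-/- mouse reached above the lowest Ifnar1+/+ mouse. The share of all genes that separate between these groups was not counted.

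Of 25 members 8 were called, all lower, against 18.5% of all genes called in either direction and 9.26% lower. The median log2 change was -0.22 for the members and 0.00 for all genes tested. Nusap1 changed by -1.96 (SE 0.44, adjusted p = 0.00152), Ube2c by -1.76 (SE 0.39, adjusted p = 0.00129), E2f2 by -1.63 (SE 0.39) and Ccna2 by -1.60 (SE 0.35). Tpx2 was 0.458, 0.374, 0.182, 0.308 and 0.211 FPKM in labelled Ifnar1-/- mice, below the 0.788, 1.39 and 1.98 FPKM (lowest, median, highest) of Ifnar1+/+ mice, with a log2 change of -0.82 (SE 0.21, adjusted p = 0.00419). Rrm2, Birc5 and Top2a changed by -0.72, -0.49 and -0.49. Birc5 and Top2a were again not tested under either fixed total or without the low-mitochondrial libraries.

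Ccnb2 and Mki67 were not called here, at -0.74 (95% interval -1.46 to -0.01, adjusted p = 0.154) and -0.47 (-0.84 to -0.10, adjusted p = 0.0699). Mcm4 and Pcna differed by 0.05 (-0.19 to 0.28) and 0.29 (-0.06 to 0.65). Leaving out the 7 low-mitochondrial libraries, which takes 3 of the 6 Ifnar1+/+ mice, left 1 of 21 members called, Tpx2 (log2 change -0.58, adjusted p = 0.00628), and Ube2c and Nusap1 changed by -0.97 and -0.95 (adjusted p = 0.121 and 0.128). With a fixed total of non-hemoglobin FPKM the median of all genes shifted by 0.44. There 12 of 23 members were called, 6 lower and 6 higher, the higher ones being Pcna, Mcm3, Mcm4, Mcm7, Tk1 and Kif23. With hemoglobin in the total the shift was 0.85, and 15 of the 25 members tested under that scaling were called higher and 4 lower. E2f2 (-0.39, adjusted p = 0.181) and Rrm2 (-0.02, adjusted p = 0.913) lost their calls.

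Among further mitosis genes, 5 of 13 tested fell in labelled Ifnar1-/- mice: Pttg1 averaged 27.1 FPKM, against 158 FPKM in Ifnar1+/+ mice (log2 change -2.46, adjusted p = 4.19e-06), and Cdc25b, Asf1b, Incenp and Spc24 changed by -1.67, -0.61, -0.72 and -0.51. Of 22 tested replication genes 4 fell and 1 rose. Dnmt1 changed by -0.70, Timeless, a replication fork protector, by -0.29 and Cdca7 by -0.37, while Rpa2, which binds single-stranded DNA, changed by 0.50. G1 regulators went both ways, with 5 of 24 higher and 4 lower. Cyclin D2 (Ccnd2) averaged 3.98 FPKM in labelled Ifnar1-/- mice and 10.1 FPKM in Ifnar1+/+ mice, and its partner Cdk6 averaged 0.656 FPKM in labelled Ifnar1-/- mice and 1.31 FPKM in Ifnar1+/+ mice. The CDK4/6 inhibitor Cdkn2d averaged 29.8 FPKM in labelled Ifnar1-/- mice and 15.2 FPKM in Ifnar1+/+ mice, and Rb1 changed by -0.99.

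Erythroid markers fell here too, 10 of 12 with a median log2 change of -1.85, and summed to 3858 to 10383 FPKM in labelled Ifnar1-/- mice and 12000 to 39512 FPKM in Ifnar1+/+ mice. Mature neutrophil markers rose (5 of 5), late neutrophil precursor markers rose (4 of 5 tested) and 2 of 4 tested platelet markers fell. Late neutrophil precursor markers summed to 197 to 347 FPKM in labelled Ifnar1-/- mice and 62.4 to 202 FPKM in Ifnar1+/+ mice, and platelet markers to 560 to 1261 FPKM in labelled Ifnar1-/- mice and 995 to 1520 FPKM in Ifnar1+/+ mice. The part of these cells in the result was not tested.

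**Figure D3:**
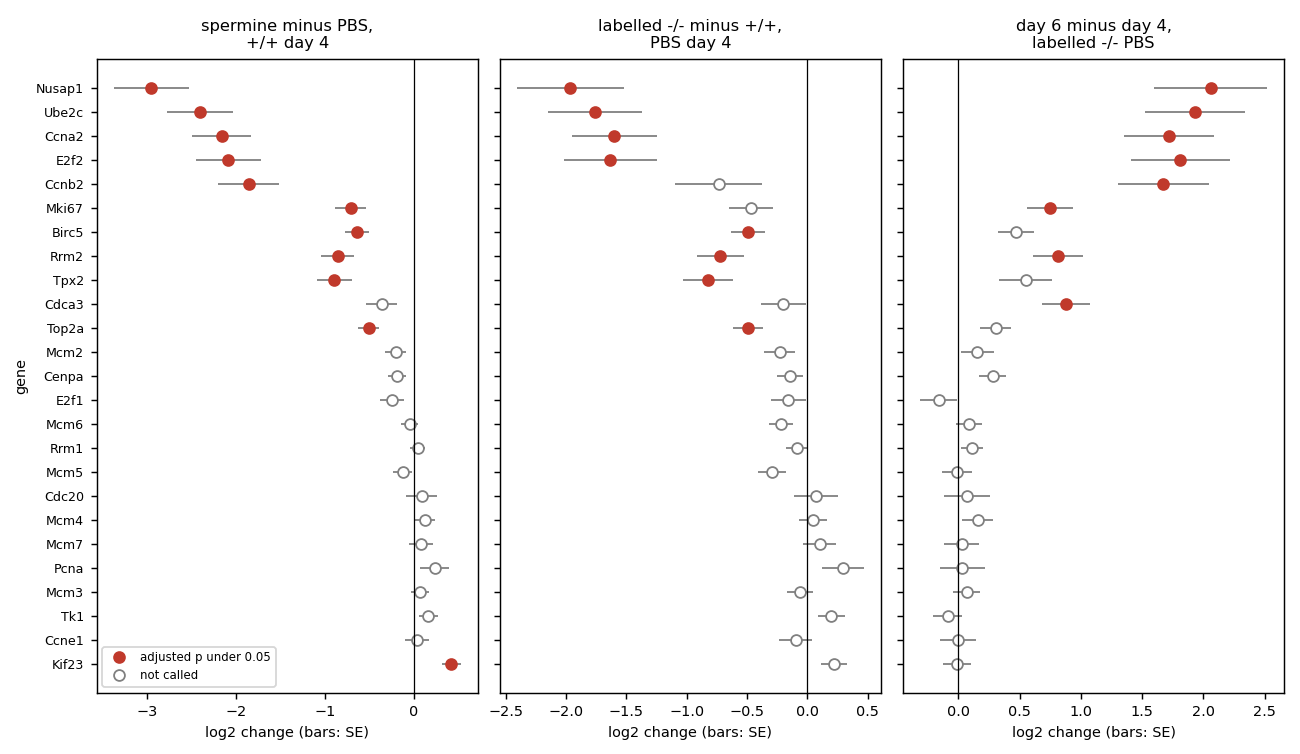
Log2 change of FPKM + 1 with its standard error (bars) for the 25 tested members in 3 comparisons, ordered by how closely each follows erythroid markers; red points are called at an adjusted p under 0.05. Nusap1 leads at -2.95, -1.96 and 2.06, and Mcm4 changes by 0.13, 0.05 and 0.16.

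Within mice labelled Ifnar1-/-, day 6 was compared with day 4, using the same day 4 mice as the genotype comparison. On day 6, 8 of 25 tested members were higher, 6 of the 12 tested mitotic, chromosome and spindle genes and 2 of the 13 tested replication genes. As above, these counts describe only genes that passed the 1 FPKM limit. Ube2c was 137, 75.2, 122, 145 and 226 FPKM on day 6, against 54.4, 29.1, 26.4, 27.1 and 40.3 FPKM on day 4. Nusap1 was 55.5, 45.2, 75.6, 58.5 and 91.1 FPKM on day 6 and 26.4, 12.2, 10.0, 9.84 and 19.4 FPKM on day 4. Neither gene overlapped between days in FPKM, and the share of all genes that separate between days was not counted. Ccnb2 was 9.02, 3.20, 8.77, 10.4 and 31.6 FPKM on day 6 and 4.19, 2.34, 1.28, 1.79 and 3.19 FPKM on day 4, so that 1 day 6 mouse lay within the day 4 range.

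Of 25 members 8 rose and none fell, against 6.21% of all genes called and 5.75% higher, with median log2 changes of 0.16 for the members and -0.04 for all genes tested. Nusap1 changed by 2.06 (SE 0.46, adjusted p = 0.00411), Ube2c by 1.93 (SE 0.41), E2f2 by 1.81 (SE 0.40), Ccna2 by 1.72 (SE 0.37) and Ccnb2 by 1.67 (SE 0.37). Cdca3, which helps degrade the Cdk1 inhibitor Wee1, averaged 2.05 ± 1.30 FPKM on day 6 and 0.591 ± 0.385 FPKM on day 4 (SD, n = 5 each), a log2 change of 0.88 (adjusted p = 0.00341). Rrm2 and Mki67 changed by 0.81 (SE 0.21) and 0.75 (SE 0.19). Without day 6 mouse 5, which had the highest value of both Mki67 (5.60 FPKM) and Rrm2 (3.04 FPKM), these fell short at adjusted p = 0.0813 and 0.0537.

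Birc5, Tpx2 and Top2a changed by 0.47, 0.55 and 0.30 and were not called, with adjusted p of 0.0528, 0.148 and 0.197. Mcm4 and Pcna changed by 0.16 (95% interval -0.09 to 0.41) and 0.03 (-0.33 to 0.40). With a fixed total of non-hemoglobin FPKM the median of all genes shifted by -0.52. There 16 of 23 members were called, 7 higher and 9 lower, the 9 being Pcna, 5 MCM genes, Tk1, E2f1 and Kif23. With hemoglobin in the total the shift was -0.92. Of the 25 members tested under that scaling 4 were called higher and 16 lower, and Mki67 turned to -0.15 (adjusted p = 0.455). E2f2 (0.50, adjusted p = 0.101), Cdca3 (0.27, adjusted p = 0.124) and Rrm2 (0.06, adjusted p = 0.74) lost their calls there.

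Of 13 tested further mitosis genes 4 rose, Pttg1 by 1.73, Cdc25b by 1.44, Asf1b by 0.78 and Spc24 by 0.78 on the log2 scale. Of 22 further replication genes limma called 0, with 4 at an unadjusted p under 0.05. Among G1 regulators 3 of 24 rose: Fzr1 averaged 48.2 FPKM on day 6 and 10.7 FPKM on day 4 (log2 change 1.95), and Cdkn2c and Rb1 changed by 0.80 and 0.86. Erythroid markers rose in 11 of 12, with a median log2 change of 1.70 and sums of 10047 to 27248 FPKM on day 6 and 3858 to 10383 FPKM on day 4. Platelet markers rose in 4 of 4 tested, with sums of 1383 to 2095 FPKM on day 6 and 560 to 1261 FPKM on day 4, and 0 of 5 tested late neutrophil precursor markers was called. Their part in the result was not tested.

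The change between days was set against that of Ifnar1+/+ mice given PBS, in which no member was called by limma or voom, 1 of 25 had an unadjusted p under 0.05 and 0.473% of all genes were called. E2f2 had 32.1, 44.5 and 174 FPKM as lowest, median and highest in Ifnar1+/+ mice on day 6 and 48.1, 97.1 and 171 FPKM on day 4. The interaction, the day change in labelled Ifnar1-/- mice minus that in Ifnar1+/+ mice, was called for 2 of 25 members, E2f2 at 2.39 (SE 0.55, adjusted p = 0.0264) and Ccna2 at 2.04 (SE 0.50, adjusted p = 0.0311), against 1.67% of all genes called and 1.09% higher. Ube2c followed at 1.99 (SE 0.55, adjusted p = 0.0517). Both calls were lost when only the 4 groups were fitted (adjusted p = 0.125 and 0.139) and with no filter on low values (0.0592 and 0.0729). The count was 0 when any 1 of 10 mice was left out: mice 1, 3 and 4 of the PBS day 4 group, mice 1, 3 and 5 of the PBS day 6 group, and mice 3 and 4 on day 4 and 4 and 5 on day 6 of the labelled Ifnar1-/- group. It was 1, E2f2, without PBS day 6 mouse 2 or without labelled Ifnar1-/- mouse 2 or 5 of day 4 or 3 of day 6. It was 4 to 9 without PBS day 4 mouse 2, 5 or 6, PBS day 6 mouse 4 or 6, labelled Ifnar1-/- day 4 mouse 1 or day 6 mouse 2. Of 12 erythroid markers 2 were called higher in the interaction, with a median of 1.78, and their part in the result was not tested.

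Between genotypes on day 6, no member was called by limma or voom, with 3 of 25 at an unadjusted p under 0.05 and 3.2% of all genes called. Mki67 averaged 3.22 ± 1.49 FPKM in labelled Ifnar1-/- mice (SD, n = 5) and 2.17 ± 0.871 FPKM in Ifnar1+/+ mice (n = 6), a log2 change of 0.39 (adjusted p = 0.29). With the 7 low-mitochondrial libraries left out, 4 members were called higher, E2f2, Ccna2, Mki67 and Rrm2. In uninduced mice no member differed between genotypes by limma or voom, with 1 of 25 at an unadjusted p under 0.05 and 0.406% of all genes called. Ube2c was 59.0, 46.4 and 57.6 FPKM in uninduced labelled Ifnar1-/- mice and 44.8, 119 and 125 FPKM in uninduced Ifnar1+/+ mice, an interval of -1.75 to 0.38 on the log2 scale.

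Pristane groups were also set against the 3 uninduced mice of their genotype. On day 6, labelled Ifnar1-/- mice had 6 of 25 members higher and none lower, against 11.8% of all genes called and 8.57% higher. Ccnb2 was 9.02, 3.20, 8.77, 10.4 and 31.6 FPKM on day 6, against 1.66, 2.88 and 1.26 FPKM uninduced, a log2 change of 1.93 (SE 0.43, adjusted p = 0.00231). Nusap1, E2f2 and Ccna2 changed by 1.62, 1.55 and 1.34, and Cdca3 and Mki67 by 0.83 and 0.77. These calls rest on few mice. Without uninduced mouse 2 or 3 the count was 1, Ccnb2. Without uninduced mouse 1 or day 6 mouse 3 it was 3, and without day 6 mouse 5 it was 2. With no filter on low values Nusap1, Ccna2 and E2f2 lost their calls in limma (adjusted p = 0.0781, 0.0664 and 0.0529). When only the 2 groups were fitted, Mki67 and Cdca3 lost theirs (limma adjusted p = 0.0679 and 0.104). Mki67 was not called under either fixed total (0.41 without and 0.52 with hemoglobin), and with hemoglobin Nusap1, Ccna2 and Cdca3 also lost their calls (adjusted p = 0.0622, 0.0628 and 0.0886). Erythroid markers rose in 9 of 12 (median 1.54), with sums of 10047 to 27248 FPKM on day 6 and 10791 to 12603 FPKM uninduced. All tested markers of mature neutrophils (5), late neutrophil precursors (5) and monocytes (5) were also called higher, and their part in the result was not tested.

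Spermine day 4 mice had 4 of 25 members lower than uninduced Ifnar1+/+ mice, against 8.61% of all genes called and 3.14% lower. Nusap1 averaged 7.36 ± 3.46 FPKM in spermine mice (SD, n = 6), against 20.1, 48.8 and 72.1 FPKM in the uninduced mice (log2 change -2.45, SE 0.52, adjusted p = 0.00131). Ube2c and Ccna2 changed by -1.98 and -1.54. Cenpa, the histone variant that marks centromeres, changed by -0.44 (SE 0.13), but by -0.17 (adjusted p = 0.537) under a fixed total of non-hemoglobin FPKM. When hemoglobin counted it changed by 0.25 (adjusted p = 0.414), all genes shifted by 0.63 and 10 members were called higher and 4 lower. Without uninduced mouse 3, 1 of the 4 calls was left, Nusap1. Erythroid markers fell in 8 of 12 (median -1.81), with sums of 2586 to 7085 FPKM in spermine day 4 mice and 8626 to 21019 FPKM in uninduced mice. All 5 mature neutrophil and all 5 monocyte markers were called higher, and their part in the result was not tested.

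In the 4 other comparisons with uninduced mice, and between spermine days, no member was called by limma, and voom called 0 in those 4. Members with an unadjusted p under 0.05 numbered 7 for PBS day 4 and 5 for PBS day 6 against uninduced Ifnar1+/+ mice, 3 for spermine day 6 against the same mice and 3 for labelled Ifnar1-/- mice on day 4. Of all genes 2.1, 8.17, 11 and 8.12% were called in these comparisons in that order. Voom called 2 members between spermine days, Ube2c and Nusap1, with limma at 5 of 25 under an unadjusted p of 0.05 and 0.617% of all genes called. Ube2c averaged 56.4 ± 21.8 FPKM on day 6 and 23.3 ± 9.47 FPKM on day 4 of spermine mice (SD, n = 6 each), a log2 change of 1.28 (SE 0.37, adjusted p = 0.106). Nusap1 changed by 1.47 (SE 0.42, adjusted p = 0.101). Of 12 erythroid markers 4 were called higher on day 6 than on day 4, with a median log2 change of 1.00. The interaction of genotype with the response to pristane called no member by limma or voom on day 4 (3 of 25 at an unadjusted p under 0.05, 0.254% of all genes called) or on day 6 (0 of 25, 0.0254% of all genes called).

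**Figure D4:**
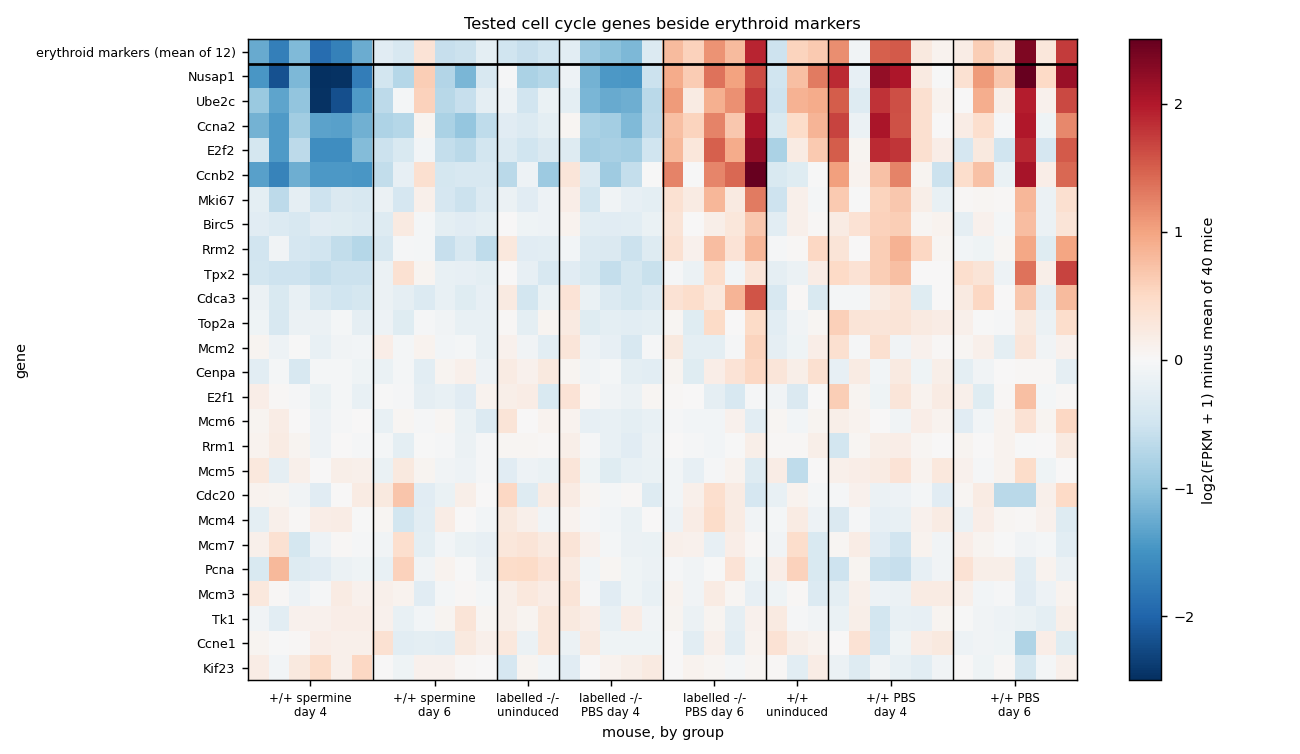
Deviation of log2(FPKM + 1) from the gene's mean of 40 mice (colour) for the 25 tested members in each mouse, with the mean of 12 erythroid markers in the top row; members are ordered by how closely they follow that row over all mice. The first 5 rows, Nusap1, Ube2c, Ccna2, E2f2 and Ccnb2, are low in spermine day 4 mice as the erythroid row is, while Mcm4 ranges over 3.26 to 7.05 FPKM in all mice.

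Mice of the same group also differed from each other. In step with erythroid markers were 12 of 25 tested members, while 2 ran the other way and 11 did not pass the test. The same count was not made over all tested genes, so the 12 are not shown to be particular to this list. Each gene's deviation from its group mean was set against that of the mean of the 12 erythroid markers in 40 mice, with p from 100000 permutations of mice within groups, two-sided, adjusted over 25 members. E2f2 gave r = 0.960 and rho = 0.946, Ccna2 r = 0.951 and rho = 0.959, Nusap1 r = 0.949 and rho = 0.940, and Ube2c r = 0.921 and rho = 0.918, each with permutation p = 1e-05, the smallest these permutations can give (adjusted p = 4.17e-05). Leaving out the 2 mice farthest from the middle gave r of 0.947, 0.934, 0.960 and 0.918 for these genes, and leaving out the 7 low-mitochondrial libraries gave 0.896, 0.909, 0.900 and 0.872.

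Mki67 (r = 0.875, rho = 0.860) and Ccnb2 (r = 0.819, rho = 0.817) followed, with adjusted permutation p = 4.17e-05 each. In all, 12 members had a positive r past an adjusted p of 0.05, the other 6 being Birc5, Rrm2, Tpx2, Cdca3, Mcm2 and Top2a, at 0.589 to 0.768. Mcm4 gave r = -0.341 and rho = -0.366 (adjusted permutation p = 0.0808 and 0.0626). Pcna (r = -0.469, rho = -0.578) and Ccne1 (r = -0.543, rho = -0.432) ran the other way past the threshold (adjusted permutation p = 0.00595 and 0.00462 for r), but gave r = -0.109 and -0.0613 without those 7 libraries. All genes of a library share its scaling.

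**Figure D5:**
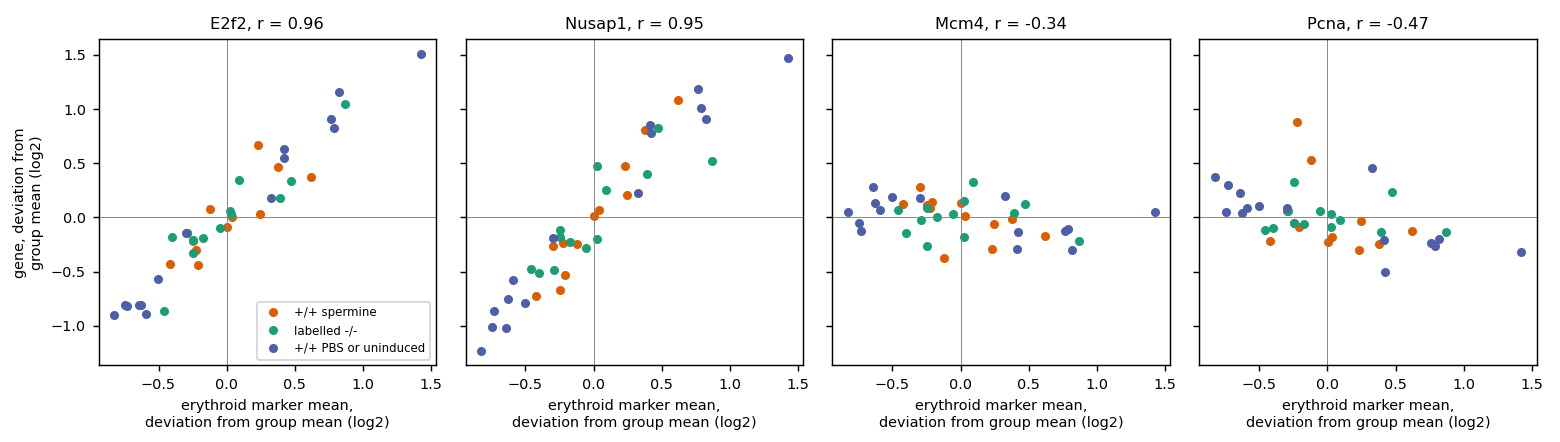
Deviation of 4 members from their group mean (vertical axes, log2) against the deviation of the erythroid marker mean (horizontal axes, log2) in 40 mice; each point is a mouse, coloured by group. E2f2 and Nusap1 lie along a line (r = 0.960 and 0.949), while Mcm4 and Pcna run slightly down (r = -0.341 and -0.469).

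Several members share exons with a gene on the other strand, and the library protocol is not described as marking strand, so their reads cannot be fully told apart. Ube2c shares 592 bases with Tnnc2, whose level was 0 in every group but labelled Ifnar1-/- day 4, at a mean of 0.0291 FPKM. Nusap1 shares 172 bases with Oip5, which averaged 0.237 FPKM in spermine day 4 mice and 1.58 FPKM in PBS day 4 mice. Ccna2 shares 510 bases with Exosc9, which averaged 1.25 FPKM in spermine day 4 mice and 1.39 FPKM in PBS day 4 mice. Ccnb1, Ccnb2, Pcna and Tyms have pseudogenes named after them in the annotation, so reads of these members may be split with a near copy.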

How the data were processed

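Whole-blood RNA of 40 mice was sequenced after poly-T selection, per the labels' protocols. The authors deposited FPKM for 54532 genes; per the submitters' processing notes, the tools were HISAT2 2.0.5 on GRCm38, featureCounts 1.5.0-p3, DESeq2 1.20.0, CASAVA 1.8 and fastp. The deposited FPKM times gene length is a whole multiple of 1 step per library (100% of nonzero values within 0.01 read), so reads were recovered; 1 read in a 2 kb gene is 0.0189 to 0.103 FPKM. The gene length is another value the authors deposited. Counting error is covered only by replicate spread.

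Genes at 1 FPKM or more in 3 or more libraries (11829) were fitted as log2(FPKM + 1) in 1 limma model over 8 groups (limma 3.58.1, R 4.3.3, eBayes with trend), with 14 contrasts and 4 interactions, with Benjamini-Hochberg adjustment and a threshold of 0.05. Standard errors are of that fit, and group values are mean ± SD. The members and lists were chosen with earlier results of these data known. Members are named where called, up to 8 with the smallest p per comparison, and up to 4 genes of each other list; values by mouse are for 12 members. Promoters and motifs were read with Python 3.11.15. The limma step was tested on simulated data. Alternatives were no filter, a pseudocount of 0.1, a fixed FPKM total of each library (hemoglobin counted or not), only the groups compared, voom on recovered reads and arrayWeights. Others were a replicate block, leaving out each mouse, and leaving out the 7 libraries with a mitochondrial share under 1.2%. The total with hemoglobin and the 7 libraries were added after seeing the data. P-values measure the spread between mice labelled as biological replicates.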

Additional observations from a re-analysis of the deposited data

Results flagged for a closer look

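Single mice stood apart from their group for 3 of 12 members examined by mouse, in 5 of 72 gene and group pairs, where chance gives about 1 in 20. Top2a was 0.831 FPKM in labelled Ifnar1-/- day 4 mouse 1, with the other 4 mice at 0.284 to 0.340 FPKM, and 1.40 FPKM in Ifnar1+/+ PBS day 4 mouse 1, with the others at 0.792 to 0.967 FPKM. Pcna was 19.8 FPKM in spermine day 4 mouse 2, with the others at 8.15 to 10.0 FPKM, and 14.1 FPKM in labelled Ifnar1-/- day 6 mouse 4, with the others at 9.95 to 10.8 FPKM. Ccna2 was 3.25 FPKM in spermine day 6 mouse 3, with the others at 1.07 to 1.62 FPKM.

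The change from day 4 to day 6 differed between genotypes, by the interaction term of the limma model, for E2f2 (2.39, adjusted p = 0.0264) and Ccna2 (2.04, adjusted p = 0.0311), higher in labelled Ifnar1-/- mice than in Ifnar1+/+ mice. Both calls were lost when only the 4 groups were fitted (adjusted p = 0.125 and 0.139), with no filter on low values (0.0592 and 0.0729) and when any 1 of 10 mice was left out.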

How the results depend on the processing

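Counts of members called are given by setting for each comparison in which they moved by over 1.5 times. With a fixed total of non-hemoglobin FPKM they were 19 for spermine against PBS on day 4 and 2 on day 6. They were also 3 between spermine days, 1 for spermine day 6 against uninduced, 16 between days in labelled Ifnar1-/- mice and 6 for the genotype by day interaction. With hemoglobin in that total they were 22 and 4 for spermine against PBS on days 4 and 6, 3 between spermine days, 14 for spermine day 4 against uninduced, 19 between genotypes on day 4, 20 between days in labelled Ifnar1-/- mice, 7 and 2 for their days 4 and 6 against uninduced, 1 for the genotype by day 4 response interaction and 13 for genotype by day. Under that scaling 3 changes turned round: Mki67 to 0.083 for spermine against PBS on day 4, Mki67 to -0.15 between days in labelled Ifnar1-/- mice and Cenpa to 0.25 for spermine day 4 against uninduced. The median of all genes shifted by 0.86, -0.92 and 0.63 there. Of 35 changes of named members, 10 more lost their calls: Rrm2 for spermine against PBS on day 4, E2f2 and Rrm2 between genotypes on day 4, E2f2, Cdca3 and Rrm2 between days in labelled Ifnar1-/- mice, and Nusap1, Ccna2, Cdca3 and Mki67 for their day 6 against uninduced.

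A pseudocount of 0.1 gave 7 for spermine day 4 against uninduced and 1 between spermine days. No filter gave 0 for genotype by day. Fitting only the groups compared gave 2 for labelled Ifnar1-/- day 4 against uninduced, 3 between spermine days and 0 for genotype by day. Voom gave 1 for spermine against PBS on day 6, 2 between spermine days and 5 for genotype by day. ArrayWeights gave 3 for spermine against PBS on day 6, 4 between spermine days, 1 for spermine day 6 against uninduced, 6 and 10 for labelled Ifnar1-/- days 4 and 6 against uninduced, 1 between genotypes on day 6, 1 for the genotype by day 4 response and 10 for genotype by day. With the 7 low-mitochondrial libraries left out the counts were 1 and 4 between genotypes on days 4 and 6, and 3 between spermine days; fewer samples and 21 tested members enter there. The cause of the other moves was not tested.

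Replicate numbers did not pair the mice: same-numbered mice correlated over 0.1 in 33 of 120 pairs (-0.365 to 0.691), and 13 of 40 libraries matched best with their own number. The replicate block gave 1 call, Cenpa, for PBS day 6 and for spermine day 6 against uninduced, where the fit without it gave 0, and kept 39 of 39 calls of named members.

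Leaving out each mouse in turn gave 11 to 11 for spermine against PBS on day 4 and 0 to 5 on day 6, 8 to 10 between genotypes on day 4 and 0 to 1 on day 6, 6 to 11 between days in labelled Ifnar1-/- mice, 1 to 7 for their day 6 against uninduced, 1 to 4, 0 to 1 and 0 to 2 for spermine day 4, spermine day 6 and PBS day 6 against uninduced, and 0 to 9 for genotype by day; the other 8 counts stayed at 0. Genes such as Cdk1, at 0 to 18 reads per library and with 0 libraries at 1 FPKM, fell short of the limit and were not tested.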
